A study of Macaca mulatta with 12 samples.

Results

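HRK and 9 other apoptosis genes of the BCL2 family were examined in the lateral geniculate nucleus, the visual relay of the thalamus, of rhesus macaques deprived of vision through 1 eye. The 10 genes are HRK, BCL2, BCL2L1, BCL2L2, BCL2L11, MCL1, BAX, BAK1, BAD and BNIP3. Their members on the array were the probe sets whose gene symbol is exactly one of these names, which gave 25 of the 22215 probe sets other than controls and 10 of the 11963 genes that a probe set named alone. HRK was picked by its measured rise in deprived layers, so its deprivation difference is given as a description with no test. The other 9 genes were taken for their place in the same family.

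Each of the 6 geniculate layers was sampled once on the ipsilateral and once on the contralateral side, 1 array per sample, for 12 arrays. Layers 2, 3 and 5 were the deprived ones ipsilaterally and layers 1, 4 and 6 contralaterally, per the labels, so every layer had 1 deprived and 1 non-deprived sample (6 and 6). By the usual anatomy, layers 1 and 2 are magnocellular (4 samples) and layers 3 to 6 parvocellular (8 samples). All samples came from deprived animals, and no undeprived animal is among the groups. Not given in the sources used here were the animals' age and number, the manner and length of deprivation, and whether samples came from the same animal. Errors below are thus those of layers and sides, part of which may be technical, and a p-value says less about animals than about layers.

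BCL2-family proteins set whether the outer mitochondrial membrane is opened during the intrinsic pathway of apoptosis. Anti-apoptotic members such as BCL2, BCL2L1, BCL2L2 and MCL1 hold the pore-forming effectors BAX and BAK1 in check. BH3-only members such as HRK, BCL2L11 and BAD bind the anti-apoptotic members and so promote pore formation. HRK, also called harakiri, is best known from rodent neurons, where it is induced when trophic factors are withdrawn.

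Values are deposited intensities on a linear scale from a human expression array, scaled between arrays, and are compared between arrays within a probe set only. Of the 25 probe sets, 11 had a mean log2 intensity at or above the median of the array (an intensity of 483.4) and were tested. They covered 7 of the 10 genes, while the probe sets of BCL2L11, BAX and BAK1 all lay below. The tests were limma fits over 11105 probe sets with deprivation, cell class and hemisphere as terms, and an adjusted p under 0.05 counted as a call. Array quality varied: the GAPDH control's 3'/5' signal ratio ranged from 2.21 to 11 and was highest in the deprived layers 2 and 5. The deprived layer 2 also had the lowest mean correlation with the other arrays (0.868, against 0.897 to 0.934). Of 10 relay neuron markers, all were measured, with PRKCD below 110.8 (the pooled 20th percentile) on 8 of 12 arrays.

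HRK was higher in the deprived than in the non-deprived sample of every layer, and higher in parvocellular than in magnocellular layers. On its probe set 206864_s_at, the deprived parvocellular layers 3, 4, 5 and 6 had intensities of 4551, 4920, 4732 and 4822. The non-deprived parvocellular layers 3, 4, 5 and 6 had 1018, 1671, 1441 and 697.6. The deprived magnocellular layers 1 and 2 had 1449 and 1203, and the non-deprived layers 1 and 2 had 720.4 and 275.2. Within each cell class the deprived and non-deprived samples did not overlap, with 4 against 4 parvocellular and 2 against 2 magnocellular samples. HRK was picked on this rise, so that is a description, and the share of all probe sets separating likewise was not counted. Over all layers the groups overlapped, because the deprived magnocellular samples lay within the range of the non-deprived parvocellular ones.

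**Figure D1:**
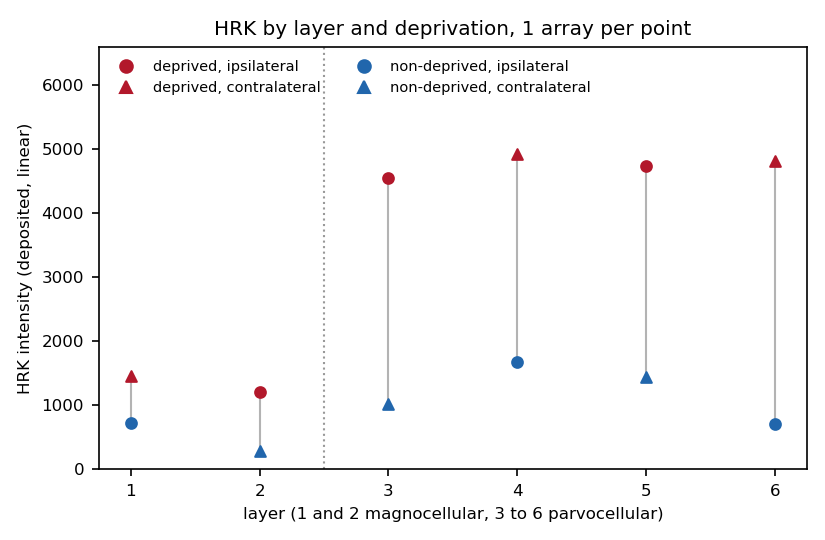
HRK intensity (probe set 206864_s_at, linear scale) by layer, 1 array per point, in red for deprived and blue for non-deprived samples, circles ipsilateral and triangles contralateral. The 4 deprived parvocellular samples lie between 4551 and 4920, and the deprived sample is the higher one in all 6 layers.

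By group, HRK stood at 4756 ± 157.1 (SD, n = 4) in deprived parvocellular layers, 1326 ± 173.9 (n = 2) in deprived magnocellular layers, 1207 ± 434.1 (n = 4) in non-deprived parvocellular layers and 497.8 ± 314.8 (n = 2) in non-deprived magnocellular layers. The middle 2 groups differed by less than their spread, and the lowest non-deprived parvocellular sample, layer 6, lay below the higher non-deprived magnocellular one. The 4 deprived parvocellular values lay closer together than the 4 non-deprived ones. Over all layers the deprivation difference was 1.89 ± 0.25 (SE) on the log2 scale, a 3.71-fold higher level. The ratio of deprived to non-deprived was smallest in layer 1 (2.01) and largest in layer 6 (6.91), with 4.37, 4.47, 2.94 and 3.28 in layers 2 to 5. Each such ratio also holds the difference between the hemispheres, since the 2 samples of a layer came from opposite sides.

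Cell class was not used to choose HRK, although earlier results of this contrast were known. HRK fell in magnocellular relative to parvocellular layers by 1.60 ± 0.26 on the log2 scale (limma adjusted p = 0.00895), from 2982 ± 1921 (n = 8) to 912.1 ± 521.5 (n = 4). It was the only call among the 11 member probe sets in this comparison, against 0.72% of all probe sets tested. The level in parvocellular layers was 3.6-fold that in magnocellular layers among deprived samples and 2.57-fold among non-deprived samples. The 4 deprived parvocellular samples lay above both deprived magnocellular ones, whereas the non-deprived samples of the classes overlapped. The call was lost without the deprived layer 1 (difference -1.62, adjusted p = 0.0599), the deprived layer 2 (-1.45, adjusted p = 0.0534) or the non-deprived layer 2 (-1.40, adjusted p = 0.0589). Without the non-deprived layer 1, the fourth magnocellular sample, it was kept (-1.95, adjusted p = 0.00183). It was also lost when the ACTB control's 3'/5' ratio entered the fit (-1.93 ± 0.44, adjusted p = 0.343), a ratio of 46.4 ± 15.1 in magnocellular and 25.7 ± 8.78 in parvocellular layers. It was lost without the filter on low intensities (adjusted p = 0.113) and without the deprived layers 2 and 5, the arrays of highest GAPDH ratio (-1.46, adjusted p = 0.052).

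The deprivation difference of HRK was 1.57 ± 0.43 on the log2 scale in magnocellular and 2.06 ± 0.30 in parvocellular layers. The difference between these effects was -0.49 ± 0.52 (95% interval -1.59 to 0.62, limma adjusted p = 0.811), so an unequal effect was not detectable with these arrays. Single arrays moved this value from -1.26 without the non-deprived layer 2 to 0.28 without the non-deprived layer 1, neither past the threshold. Between hemispheres, the effect was 1.65 ± 0.35 ipsilaterally and 2.14 ± 0.35 contralaterally, a difference of -0.49 ± 0.50 (interval -1.54 to 0.56, adjusted p = 0.884). It ran from -1.01 without the non-deprived layer 6 to -0.03 without the non-deprived layer 1. In this design that contrast is the same as layers 2, 3 and 5 against layers 1, 4 and 6. HRK had a hemisphere difference of 0.11 ± 0.25 (interval -0.42 to 0.63, adjusted p = 0.833). Within the parvocellular layers, the dorsal pair 5 and 6 differed from the ventral pair 3 and 4 by -0.18 ± 0.31 (adjusted p = 1), with 2923 ± 2162 against 3040 ± 1981 (n = 4 each).

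The other 2 HRK probe sets gave little signal. That named 206865_at read below 110.8 on 8 of 12 arrays and was higher in the deprived sample in 5 of 6 layers (103.1 ± 37.2 against 78.3 ± 36.1, n = 6 each). That named 206863_x_at read below 110.8 on 9 arrays and was higher in 2 of 6 layers (83.9 ± 89.3 against 66.8 ± 55.1). The HRK values above thus rest on 1 probe set.

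Marker lists of other cell types were compared too, with no test and on the deposited scaling only. Over all tested genes, 53.1% had a positive deprivation difference and 42.4% were higher in magnocellular layers. With median centring the median deprivation difference of all probe sets was -0.11, beside 0.03 as deposited. The deprived and non-deprived ranges overlapped for every list. The astrocyte list had a higher mean log2 intensity in deprived layers for 8 of 8 markers (summed intensity 75770 to 120810 in deprived and 49789 to 87812 in non-deprived samples). It was 6 of 6 measured oligodendrocyte markers (59173 to 142556 against 56759 to 100210), 7 of 8 microglia markers (7173 to 14125 against 6237 to 8275) and 6 of 8 endothelial and mural markers (11237 to 17375 against 9366 to 13274). Of the relay neuron list 2 of 10 were higher (274220 to 333703 against 322889 to 362658), and of the GABAergic neuron list 6 of 7 (47300 to 90324 against 52016 to 75043). The relay list includes SNAP25 and SYT1 (median intensities 61438 and 85395), and the GABAergic list PVALB (22584) and CALB1. Whether these genes mark the named cell types in this tissue was not tested, so the 2 lists need not separate them. Both measured blood markers were higher in deprived layers (2832 to 13905 against 3626 to 6145). With cell class, 1 of 6 oligodendrocyte markers was higher in magnocellular layers (56759 to 82256, against 81675 to 142556 in parvocellular layers). So were 4 of 10 relay neuron markers (329823 to 362658 against 274220 to 335184), in sums that weigh the most intense markers most. Of the other lists, 4 of 8 astrocyte, 3 of 8 microglia and 4 of 8 endothelial and mural markers were higher there. It was 3 of 7 GABAergic neuron markers and 0 of 2 blood markers. No marker was listed at 0, and C1QA of microglia read below 110.8 on 8 of 12 arrays. PTPRC and CD14 of microglia and SST of the GABAergic list read below 110.8 on 4 arrays each. Of the microglia list, AIF1, C1QA, C1QB, PTPRC and CD14 had a mean log2 intensity below the filter, as did SST, AQP4, VWF and PRKCD. The count of microglia markers thus rests largely on low intensities. The part of these marker differences in the HRK differences was not tested. In such tissue samples, more cells that express a gene and more RNA per cell cannot be told apart.

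Among the 10 tested probe sets of the other members, 0 passed with deprivation in limma (adjusted p from 0.293 to 0.993), while 0.063% of all probe sets did. At an unadjusted p under 0.05 there were 3, of BCL2, MCL1 and BNIP3, against 12% of all probe sets. Of the 10 differences 5 were positive and 5 negative, with a median of -0.03 on the log2 scale beside 0.03 over all probe sets. The split depended on the scaling: 3 were positive and 7 negative with each array centred on its median (median -0.17, beside -0.11 over all probe sets) and with quantile normalization (median -0.10, beside -0.01). With median centring both BAD probe sets turned negative, at -0.13 each.

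**Figure D2:**
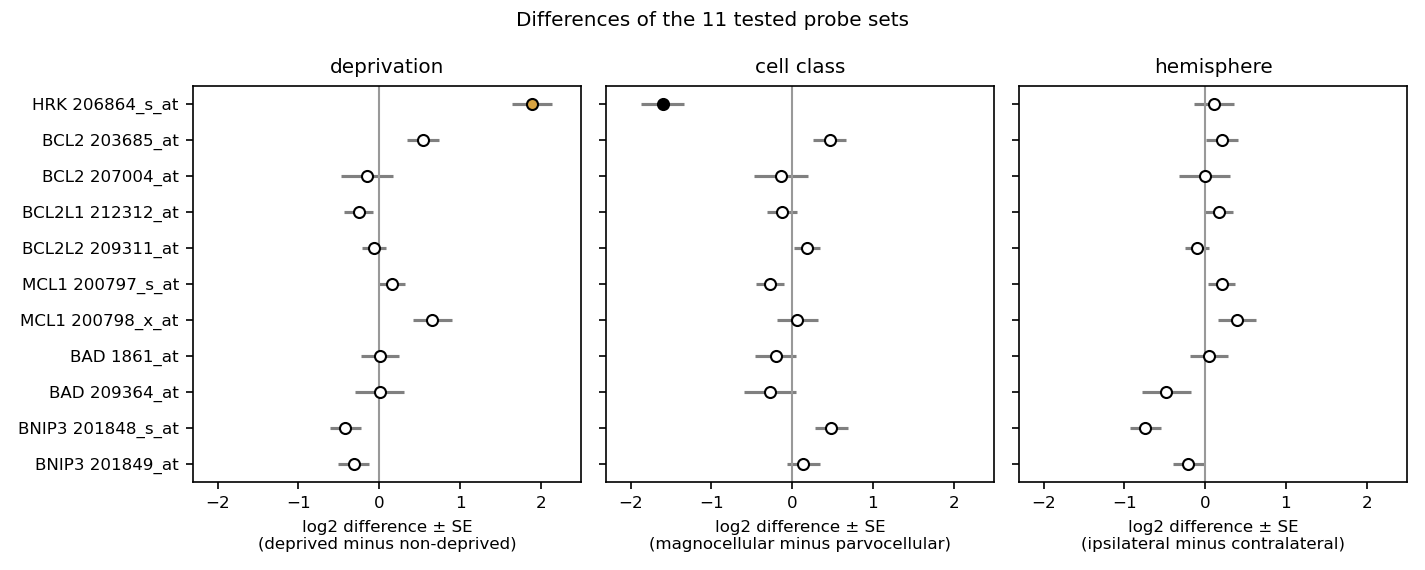
Log2 differences with their standard errors for the 11 tested probe sets, by deprivation (deprived minus non-deprived), cell class (magnocellular minus parvocellular) and hemisphere (ipsilateral minus contralateral), from 12 arrays. The filled black point passed the threshold (HRK with cell class, -1.60), open points did not, and the gold point is the HRK deprivation difference (1.89), which chose the gene and was not tested.

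BCL2, the founding anti-apoptotic member, had the smallest adjusted p among them. Its probe set 203685_at read 1545, 2777, 1253, 1136, 1268 and 1132 in the deprived layers 1 to 6, and 1220, 902.1, 1193, 826.3, 856.9 and 985.3 in the non-deprived ones. The deprived sample was the higher one in 6 of 6 layers, by ratios from 1.05 to 3.08, though the groups overlapped. The share of all probe sets with the deprived sample higher in every layer was not counted. The difference was 0.54 ± 0.20 on the log2 scale (limma adjusted p = 0.293), and 0.39 ± 0.18 without the deprived layer 2, whose 2777 stood far above the rest. That array had the lowest mean correlation with the others. A second tested BCL2 probe set, 207004_at, was higher in 3 of 6 layers and had a difference of -0.15 ± 0.32 (adjusted p = 0.892), from 574.8 ± 168.9 to 534.4 ± 189.6. The 2 untested BCL2 probe sets, 203684_s_at and 207005_s_at, were each higher in 4 of 6 layers. They read below 110.8 on 6 and 2 arrays, so these counts rest partly on readings below the floor.

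MCL1, a short-lived anti-apoptotic protein, had 2 tested probe sets. On 200798_x_at the deprived layers 1 to 6 read 747.8, 776.6, 844.7, 653.6, 656.4 and 453.7, and the non-deprived ones 564.1, 288, 466.7, 495.6, 359.7 and 461.3. The deprived sample was higher in 5 of 6 layers, and in layer 6 the values were nearly equal (ratio 0.984). The difference was 0.66 ± 0.24 (adjusted p = 0.298), from 439.2 ± 99.2 to 688.8 ± 136.4. On 200797_s_at the deprived sample was also higher in 5 of 6 layers, all but layer 4, but the difference was 0.15 ± 0.16 (adjusted p = 0.773, 1642 ± 385.4 against 1802 ± 252.3). Of the 3 probe sets below the filter, 214056_at was higher in 5 of 6 layers and 200796_s_at and 214057_at in 4. The count for 200796_s_at includes layers 5 and 6, where both samples read below 110.8. That probe set read below 110.8 on 8 arrays, and 214056_at did so on 4 arrays, all non-deprived. The counts for these probe sets thus rest partly on readings below the floor.

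BNIP3, a mitochondrial member known for its induction by hypoxia and its role in mitophagy, had the largest negative differences. On 201848_s_at the deprived layers 1 to 6 read 4005, 2319, 2316, 2917, 1344 and 3675, and the non-deprived ones 3008, 7208, 3024, 2177, 3688 and 3362. On 201849_at they read 10241, 8056, 6218, 7292, 7857 and 5989, against 7349, 10356, 10405, 5787, 10784 and 13147. The deprived sample was the lower one in layers 2, 3 and 5 on both probe sets and in layer 6 on the second, and the groups overlapped. The differences were -0.42 ± 0.19 (adjusted p = 0.409) and -0.31 ± 0.19 (adjusted p = 0.558). The first was -0.24 without the deprived layers 2 and 5, and the second -0.16 without the non-deprived layer 6, its highest value. On 201848_s_at BNIP3 also had the largest hemisphere difference of the members, -0.74 ± 0.19 (adjusted p = 0.108), with 2421 ± 703.1 ipsilaterally and 4086 ± 1586 contralaterally (n = 6 each). Without the non-deprived layer 6 that difference passed (-0.85 ± 0.19, adjusted p = 0.0244), and the number of all probe sets passing with hemisphere was then 848 in place of 12. The ipsilateral arrays include both arrays of highest GAPDH ratio, and with that ratio in the fit the hemisphere difference was -0.42 (adjusted p = 0.873). In layers 2, 3 and 5 the deprived sample was the ipsilateral one.

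The remaining tested members showed no such pattern by layer. BCL2L1, which encodes BCL-xL, was higher in the deprived sample in 3 of 6 layers on 212312_at. Its lowest, median and highest intensities were 2118, 2845 and 3891 in deprived and 2643, 3414 and 4161 in non-deprived samples, a difference of -0.25 ± 0.18 (adjusted p = 0.615). The untested BCL2L1 probe set 215037_s_at (mean intensity 471.8) was also higher in 3 of 6 layers, with ratios from 0.485 to 3.15. BCL2L2, which encodes the anti-apoptotic protein BCL-w, ranged from 5599 to 10416 in deprived and from 7454 to 8999 in non-deprived samples (-0.06 ± 0.15, interval -0.39 to 0.26, adjusted p = 0.905). BAD, a BH3-only protein whose activity is known to be set by phosphorylation, had differences of 0.01 ± 0.24 on 1861_at and 0.01 ± 0.31 on 209364_at (adjusted p = 0.991 and 0.993). On both BAD probe sets the deprived sample was lower in layers 1 and 3 and higher in layers 4 and 6. In layer 2 it was higher on the first and lower on the second, and in layer 5 the reverse.

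**Figure D3:**
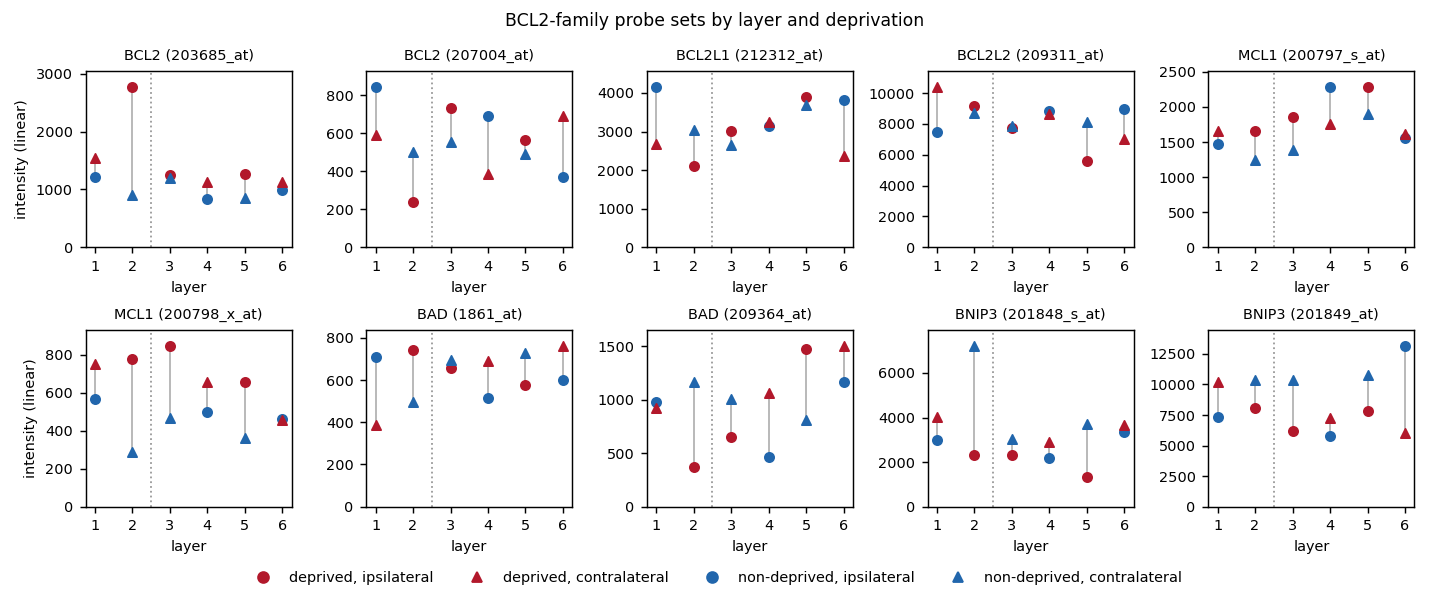
Intensity (linear scale from 0) by layer for the 10 tested probe sets of the other members, coloured by deprivation with circles ipsilateral and triangles contralateral. BCL2 on 203685_at is higher in the deprived sample of all 6 layers, with its highest value of 2777 in the deprived layer 2, and the 2 groups overlap on every probe set.

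The effectors and BCL2L11 were measured only at low intensities and were not tested. BAK1, a pore-forming effector, read from 94 to 475.6 (median 196) in deprived and from 146.4 to 548.3 (median 322) in non-deprived samples, and was higher in the deprived sample in 2 of 6 layers. BAX, the other effector, read from 88 to 284.5 in deprived and 84.8 to 396.8 in non-deprived samples on 208478_s_at, with 3 of 6 layers each way. In magnocellular layers BAX read 122.4 ± 69.1 (n = 4) and in parvocellular layers 271.8 ± 63.3 (n = 8), with values that overlapped. Its other probe set, and 1 each of BCL2L1 and BCL2L11, read below 110.8 on all 12 arrays. BCL2L11, which encodes the BH3-only protein BIM, read from 116.2 to 362.3 in deprived and from 152.4 to 273.1 in non-deprived samples on 222343_at, and was higher in the deprived sample in 2 of 6 layers. Human probes can bind macaque transcripts less well where the sequences differ, so a low reading on this array does not show a low transcript level.

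With cell class, none of the 10 tested probe sets of the other members passed in limma (adjusted p from 0.292 to 0.943). At an unadjusted p under 0.05 there were 2 of them, of BNIP3 and BCL2, against 14.6% of all probe sets. BNIP3 on 201848_s_at had a difference of 0.49 ± 0.21 (magnocellular minus parvocellular), with 4135 ± 2162 in magnocellular and 2813 ± 817.4 in parvocellular layers. It was 0.33 ± 0.23 without the non-deprived layer 2, the highest value at 7208. BCL2 on 203685_at had 0.46 ± 0.21, with 1611 ± 820.3 against 1081 ± 171.9, and 0.23 ± 0.20 without the deprived layer 2. The 2 MCL1 probe sets had differences of opposite sign (-0.27 ± 0.17 and 0.06 ± 0.26). With hemisphere 0 of 11 member probe sets passed, beside 0.108% of all, and 1 had an unadjusted p under 0.05, against 20.1% of all.

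For the difference of the deprivation effect between cell classes, 0 of the 11 passed in limma and 0% of all probe sets did. The member of smallest p was BAD on 209364_at, with -1.31 ± 0.57 (adjusted p = 0.541): its deprivation difference was -0.87 ± 0.47 in magnocellular and 0.45 ± 0.33 in parvocellular layers. For the difference between hemispheres, and for dorsal against ventral parvocellular layers, 0 of 11 passed and 0% of all. At an unadjusted p under 0.05 there were 0 and 0 members, against 6.57% and 2.47% of all probe sets.

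The members' profiles over the 12 arrays followed that of HRK to different degrees, given here as a description over arrays that share the deprivation and class differences. Pearson's r with HRK was 0.66 and 0.57 for the MCL1 probe sets 200797_s_at and 200798_x_at, and -0.62 and -0.63 for the BNIP3 probe sets 201848_s_at and 201849_at. The other 6 lay between -0.45 (BCL2L2) and 0.27 (BAD). After deprivation, class and hemisphere were taken out, r was 0.63 for BCL2 on 207004_at (0.17 before), the highest of the members. On the other tested BCL2 probe set, 203685_at, it was -0.27 (0.12 before). It was 0.52 and 0.27 for MCL1, and -0.47 and -0.71 for BNIP3. Over 9842 other tested probe sets that name 1 gene, r with HRK before this step had a median of 0.10 and ranged from -0.91 to 0.93. Such a range is not given here for r after it.

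The genes with the highest r were BRINP3 (0.93), ADAMTS3, a secreted metalloprotease (0.89), GRK5, a G protein-coupled receptor kinase (0.88), LITAF (0.87, its other probe set 0.85) and DPYSL3, a cytoskeletal regulator of axon growth (0.87). All 5 were highest in deprived parvocellular layers on average. Picking them by r with HRK, itself highest there, largely sets this, so the group values given here are a description. BRINP3 came to 2557 there, against 828.9 in non-deprived parvocellular, 920.2 in deprived magnocellular and 459.9 in non-deprived magnocellular layers, the group means of 4, 4, 2 and 2 samples. GRK5 ran from 1049 to 1261 in the 4 deprived parvocellular samples and from 409.2 to 718.7 in all others. The share of all probe sets that separate in this way was not counted. The genes with the lowest r were CAPRIN2 (-0.91), ATP8A2, a phospholipid flippase (-0.90), ZDHHC3, a palmitoyltransferase (-0.89), SNRPE, a core protein of the spliceosome (-0.89) and BAG3, a co-chaperone that takes its name from its binding of BCL2 (-0.88). CAPRIN2 averaged 18602 in non-deprived magnocellular and 8522 in deprived parvocellular layers. For ZDHHC3 and SNRPE the other tested probe set had r of 0.19 and -0.17, so their likeness rests on 1 probe set each. BRINP3, ADAMTS3, GRK5, DPYSL3, CAPRIN2 and BAG3 had no other tested probe set, so theirs does too. With the 3 terms taken out, r lay between -0.10 (ADAMTS3) and 0.63 (DPYSL3) for the first 5 genes, and between -0.50 and -0.31 for the second 5.

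**Figure D4:**
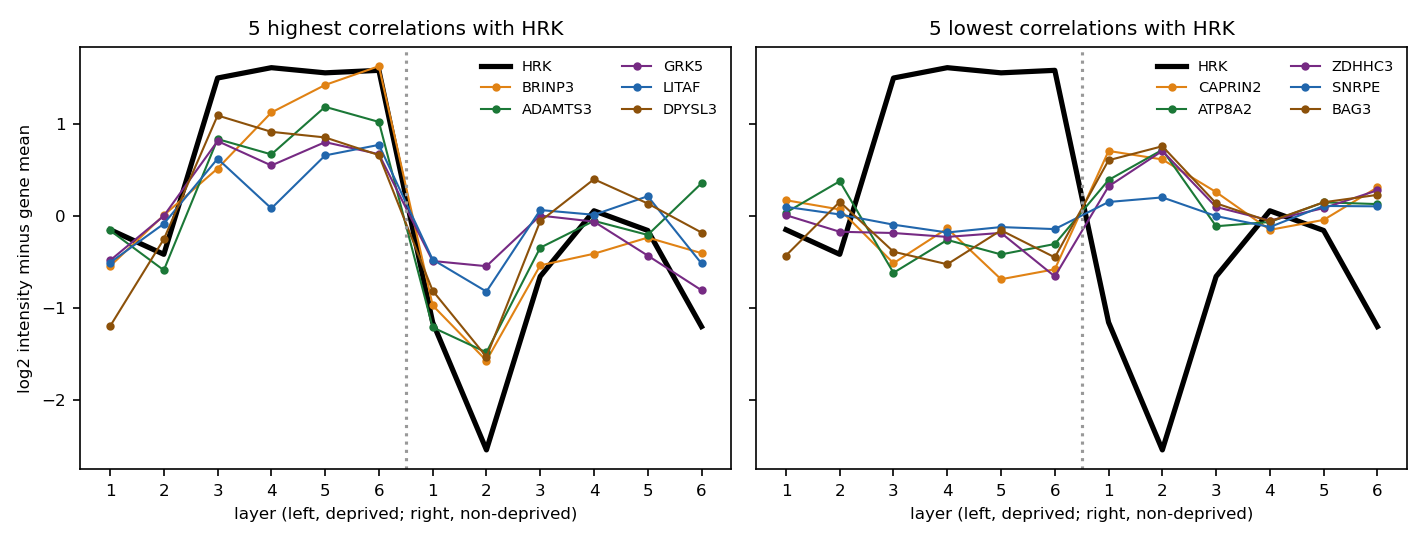
Log2 intensity minus the gene's mean over the 12 arrays, by layer (left of the dotted line deprived, right non-deprived), for HRK in black and the genes with the 5 highest and 5 lowest Pearson r with it. HRK and the first 5 genes lie above their means in the deprived layers 3 to 6, and the second 5 genes above theirs in the non-deprived layers 1 and 2. The genes were picked by these same profiles.

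Other genes of the intrinsic pathway were counted in 4 lists, with 1 tested probe set per gene. No gene of any list passed with deprivation or cell class in limma. Counts of signs depend on the scaling: with each array centred on its median, the median deprivation difference of all probe sets moved from 0.03 to -0.11, and that of hemisphere from 0.07 to -0.25. Of 6 tested genes among other BCL2-family members, 2 had a positive deprivation difference and 4 a negative one (median -0.08, beside 0.02 over 7285 tested genes). The median was -0.21 with median centring, with 1 positive and 5 negative, and -0.17 with quantile normalization. As deposited, 1 had an unadjusted p under 0.05, against 12% of all probe sets. BNIP3L, a mitophagy receptor close to BNIP3, had -0.40 ± 0.16 on 221479_s_at (adjusted p = 0.34; 11868 ± 3408 in deprived and 15142 ± 1880 in non-deprived layers) and 0.17 ± 0.19 on its other probe set. BNIP1 had -0.39 ± 0.27 and, on its other probe set, 0.27 ± 0.26. With cell class BCL2L14 had -0.67 ± 0.25 (adjusted p = 0.232), and BNIP3L on 221478_at had 0.43 ± 0.20.

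Of 10 tested genes of the apoptosome, the caspases and their inhibitors, 5 had a positive and 5 a negative deprivation difference (median 0.01). With median centring 1 was positive and 9 negative (median -0.13). As deposited, 0 had an unadjusted p under 0.05, against 12% of all probe sets. DIABLO, which releases caspases from their inhibitors, had -0.25 ± 0.19 (limma adjusted p = 0.644). It was lower in the deprived sample of all 6 layers (2371 ± 624.7 against 2766 ± 459.4). How many of all probe sets were lower in every layer was not counted. HTRA2, a mitochondrial protease with a like role, had -0.21 ± 0.18. With cell class CASP2 had -0.48 ± 0.24 and DFFA, the inhibitor of the caspase-activated nuclease, -0.49 ± 0.25 (adjusted p = 0.364 and 0.386).

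The JNK cascade is known to induce HRK in rodent neurons through the transcription factor JUN. Of 13 tested genes of that cascade and of transcription factors upstream of BH3-only genes, 6 had a positive and 7 a negative deprivation difference (median -0.25, and -0.39 with median centring). An unadjusted p under 0.05 was found for 12% of all probe sets and for 3 of the genes. On the probe set kept for each, these were MAPK8IP3, MAPK10 and ATF2, of differing sign. MAPK10 had -0.33 ± 0.15 and, on its other probe set, -0.22 ± 0.15. ATF2 had 0.57 ± 0.26 and, on its other probe set, 0.05 ± 0.26. The kept JUN probe set, 201464_x_at, was not among them (0.31 ± 0.19, higher in 4 of 6 layers). Of its other probe sets, JUN had 0.86 ± 0.26 on 213281_at (limma adjusted p = 0.207, higher in 6 of 6 layers). This probe set read 747.2 ± 212.9 in deprived and 423.5 ± 156.5 in non-deprived layers. On 201466_s_at JUN had 0.56 ± 0.24 (higher in 5 of 6). How many of all probe sets were higher in every layer was not counted. MAPK8IP3, a JNK scaffold involved in axonal transport, had -0.83 ± 0.24 (adjusted p = 0.19; 6945 ± 2031 against 12676 ± 5439). With cell class, JUN had -0.73 ± 0.20 on 201464_x_at (limma adjusted p = 0.128), -0.55 ± 0.28 on 213281_at and -0.12 ± 0.25 on 201466_s_at. FOXO1 had -0.73 ± 0.22 on 1 probe set and 0.00 ± 0.19 on the other.

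Of 12 tested mitochondrial partners, 2 had a positive and 10 a negative deprivation difference (median -0.22). The median was -0.36 with median centring and -0.11 with quantile normalization, with 3 positive and 9 negative in the latter. As deposited, 3 had an unadjusted p under 0.05, against 12% of all probe sets. On the probe set kept for each, these were SLC25A4, SLC25A5 (-0.27 ± 0.10) and C1QBP (-0.44 ± 0.16, and -0.34 ± 0.19 on its other probe set). SLC25A4, an adenine nucleotide translocator, had -0.62 ± 0.16 (adjusted p = 0.164; 13699 ± 4720 against 20282 ± 3294), and 0.07 ± 0.23 on its other probe set. YWHAZ, a 14-3-3 protein that binds phosphorylated BAD, had -0.41 ± 0.14 on 200640_at (limma adjusted p = 0.249, lower in 6 of 6 layers). The share of all probe sets lower in every layer was not counted. The other 3 YWHAZ probe sets ranged from -0.19 to 0.19, the kept one being the lowest of these. With cell class 9 were positive and 3 negative (median 0.15, beside -0.06 over all tested genes, and 0.24 with 11 positive under median centring). PPIF, the mitochondrial cyclophilin, had 0.50 ± 0.17 and -0.55 ± 0.28 on its 2 probe sets, and YWHAZ had 0.68 ± 0.22 on 200638_s_at.

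**Figure D5:**
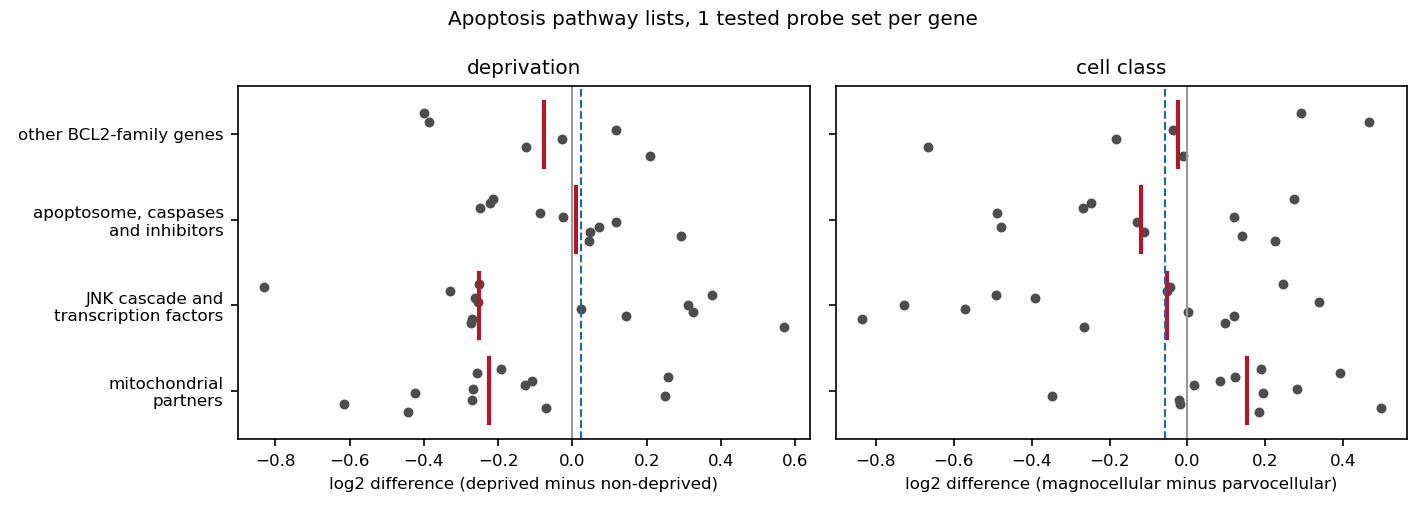
Log2 differences of each tested gene in the 4 apoptosis lists (grey points, 1 probe set per gene) by deprivation and by cell class, with the list median in red and the median of all 7285 tested genes as a dashed blue line. The lists of JNK cascade genes and mitochondrial partners have deprivation medians of -0.25 and -0.22, and no single gene passed the threshold.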

How the data were processed

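The authors deposited 1 linear intensity per probe set and array for 22283 probe sets (68 controls). Not given in the sources used here is which software made them. The deposited intensities had 2%-trimmed means from 1500.45 to 1500.6, so they were already scaled between arrays, and were used as deposited. Genes were named from the platform annotation. Coordinates are left out, since the labels name no build. A floor was set at the 20th percentile of all intensities (110.8), log2 was taken, and the 11105 probe sets other than controls at or above the median mean were tested with lmFit and eBayes with a trend (limma 3.58.1, R 4.3.3). Tests were two-sided, and the Benjamini-Hochberg adjustment ran over all of them. The additive fit left 8 residual degrees of freedom. The interactions and the dorsal contrast, each added in turn, left 7. The fit was run on simulated data with independent noise for each array. Such data cannot show how it behaves where arrays share an animal or a quality difference. Members and lists were chosen with earlier results of these data known. Genes named were all members, the 2 probe sets of smallest p per list for deprivation and for cell class, and the 5 highest and lowest r with HRK. MAPK10, ATF2, SLC25A5 and C1QBP were named after their values were seen. Lists kept a gene's probe set of highest mean, and genes without a tested probe set are not analysed here. Alternatives covered normalization, filter, floor, trend, covariates, layer as a block, parvocellular layers alone and left-out arrays. The number of arrays limits the precision.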

Additional observations from a re-analysis of the deposited data

Results flagged for a closer look

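Of 44 groups of samples (the 11 tested probe sets in deprived, non-deprived, magnocellular and parvocellular samples), 3 held a sample far from the others by Dixon's criterion, where chance flags about 1 in 20. BCL2 on 203685_at read 2777 in the deprived layer 2, while the other deprived samples ran from 1132 to 1545. MCL1 on 200797_s_at read 2285 in the deprived layer 5, while the others ran from 1615 to 1851. BNIP3 on 201848_s_at read 7208 in the non-deprived layer 2, while the others ran from 2177 to 3688. The first 2 are the arrays of highest GAPDH 3'/5' ratio (9.38 and 11), and the part of that ratio in these readings was not tested.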

How the results depend on the processing

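The HRK cell class difference kept its sign in every setting and stayed past the threshold in 9 of 12 settings other than left-out arrays. It did not pass without a filter (-1.60), with the ACTB ratio (-1.93) or with the deprived layers 2 and 5, highest in GAPDH ratio, left out (-1.46), where the count of members passing was 0. With single arrays left out it ran from -1.95 to -1.40 and the count from 0 to 1, with 0 when the array left out was the non-deprived layer 2 or one of the deprived magnocellular layers. The cause of these changes was not tested. The HRK deprivation difference ran from 1.69 to 2.12 with arrays left out and from 1.76 to 2.06 otherwise. Members other than HRK passing with deprivation numbered 0 in every setting. With hemisphere the count was 0, and 1 only without the non-deprived layer 6. Of 1537 values of single members under alternatives, 104 changed sign with neither value past the threshold and 0 with either past it.

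Over all probe sets, the number passing ran from 0 to 43 with deprivation (7 as reported), from 4 to 190 with cell class (80), from 0 to 848 with hemisphere (12) and from 0 to 205 for the interaction with cell class (0). With the layer number as a replicate block the HRK class difference was -1.60 (adjusted p = 0.00715), the deprivation count of all probe sets was 3, and no member's call changed. Deviations of the 2 samples of a layer correlated between -0.25 and 0.00, so no pairing by layer was seen on this measure. The 2 samples always differ in deprivation and side too, so the measure cannot settle whether the layer number pairs them. The hemisphere interaction is fixed within a layer, so it, cell class and the dorsal contrast used an estimated block correlation, all below 0.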
